A study of Mus musculus with 9 samples.

Results

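The genes described here are 10 transcription factor genes of the AP-1 group in mouse colon carcinoma cells: the Jun subunits Jun, Junb and Jund, the Fos subunits Fos, Fosb, Fosl1 and Fosl2, the related factors Atf3 and Batf3, and Egr1. They were chosen by symbol, and each of the 10 was found among the 16399 genes of the deposited tables. MC38 is a mouse colon carcinoma cell line, labelled as colon and as epithelial cells. MC38-P was the parental line, and MC38-LM3a and MC38-LM3b were derivatives from the third round of selection, which the study calls independently derived. Each round was an injection into the spleen of immunocompetent mice, with recovery of the liver metastases and growth in culture. The lines it names for the earlier rounds are MC38-LM1 and MC38-LM2, so the derivatives may share those rounds. All 3 lines carried GFP and luciferase, and all were sequenced as cultured cells, with no treatment named in the labels, in 3 biological replicates each (9 libraries). Each derivative is a single recovered cell population, so the replicates measure the spread of that population and not of the selection.

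AP-1 is a dimer of basic leucine zipper (bZIP) proteins. Jun proteins pair with each other or with Fos proteins, whereas Fos proteins need a Jun partner, and the dimers bind the motif known as the TPA response element (TRE). ATF and BATF proteins share the zipper, and pairs that contain them often bind the cyclic AMP response element (CRE) or composite sites. Several of these genes are immediate-early genes, transcribed within minutes of growth factor or stress signals through MAP kinases. Egr1 is a zinc finger factor and not a bZIP protein; it is treated with the others as an immediate-early gene, and not as an AP-1 subunit.

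All 10 genes passed the expression filter (a level of 1 TPM or more in 3 libraries or more; TPM are reads scaled by transcript length and by library), as did 11287 genes in all. Levels were compared by limma on log2(TPM + 1), so a fold change understates the change of a low gene. A gene was called at an adjusted p-value under 0.05, and a differentially expressed gene (DEG) also had an absolute log2 fold change above 1. In each library 10875 to 11218 genes reached 1 TPM. TPM carry no read numbers, and errors of counting are not known. Relative to the other libraries of the same group, a gene's level followed transcript length in the libraries of MC38-P and MC38-LM3a. Rank correlations over 11096 genes were 0.54 and 0.43 in MC38-P replicates 1 and 2, and -0.65 in MC38-P replicate 3. They were -0.58 and -0.54 in MC38-LM3a replicates 1 and 2, and 0.67 in MC38-LM3a replicate 3, against -0.02 to 0.02 in MC38-LM3b. MC38-P replicate 3 and MC38-LM3a replicate 3 thus stood apart from their groups, and results that rest on them are also given without them. The median log2 fold change of all tested genes was -0.00016 for MC38-LM3a and 0.21 for MC38-LM3b against MC38-P. Values for MC38-LM3b are printed without subtracting this median unless stated, and are to be read beside 0.21.

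Batf3 and Fos, both of low level, were lower in each derivative than in the parental line. Junb was called in MC38-LM3a and Jun and Fosl1 in MC38-LM3b, but no member was called between the derivatives. In MC38-LM3a, 3 of the 10 genes were called, all lower (Batf3, Fos and Junb), against 13.8% of all tested genes called lower and 14.1% called higher. In MC38-LM3b, 4 were called: Batf3 and Fos were lower, against 11.2% of all genes, and Jun and Fosl1 were higher, against 35.6%. With correction for GC content and length, and with quantile normalization, 1 member was higher and 4 were lower in MC38-LM3b, beside 29.6% and 28.9%, and 25.9% and 24.5%, of all genes. None of the 10 was a DEG in either comparison, where 2.89% and 3.93% of all genes were. The 2 comparisons share the MC38-P libraries and are not independent. Separation of the libraries was common: for 20.3% of all tested genes every MC38-LM3a library was above every MC38-P library and for 15.9% below, and for MC38-LM3b these shares were 51.3% and 15.4%. Of the members, 0 were above and 4 below for MC38-LM3a, and 4 were above and 2 below for MC38-LM3b. Between the derivatives, every MC38-LM3b library was above every MC38-LM3a library for 38.4% of all genes and below for 3.6%. Of the members, 4 were above and 0 below.

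**Figure D1:**
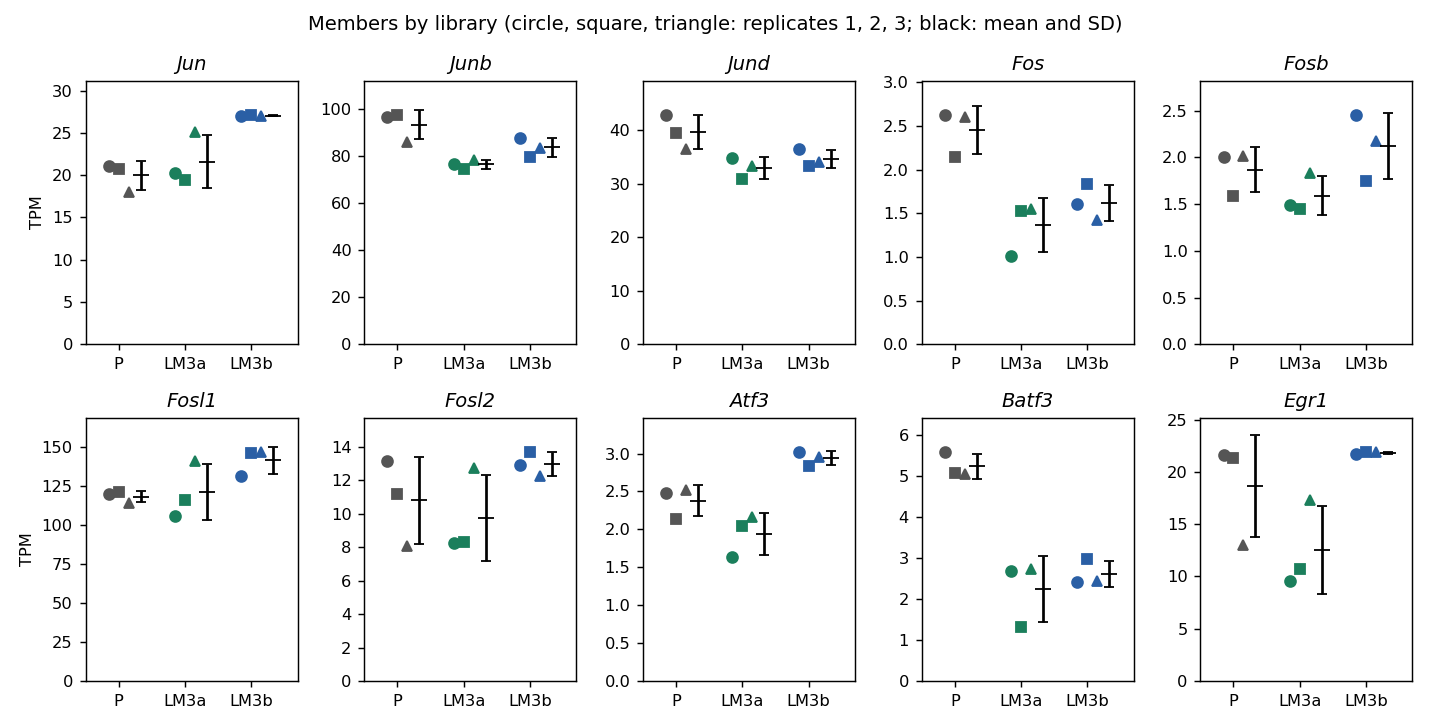
Level of each of the 10 genes in TPM (vertical axis, from 0, a separate scale per gene) in the 3 libraries of each line (P, LM3a and LM3b), with the mean and SD in black. Batf3 and Fos are lower in all 6 derivative libraries than in any MC38-P library, Jun is highest in the 3 MC38-LM3b libraries, and Egr1 and Fosl2 vary widely within MC38-P and MC38-LM3a.

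Batf3 (NCBI Gene 381319) showed the largest change among the members. It encodes a small bZIP protein that pairs with Jun proteins and is best known for its role in dendritic cell development. Its level was 5.59, 5.08 and 5.05 TPM in the 3 MC38-P libraries, 2.68, 1.32 and 2.73 TPM in MC38-LM3a, and 2.41, 2.97 and 2.43 TPM in MC38-LM3b. The lowest parental library was above the highest derivative library. The log2 fold change was -0.98 (SE 0.177, adjusted p = 0.00222) in MC38-LM3a and -0.79 (adjusted p = 0.00465) in MC38-LM3b, and the mean TPM was 0.428 and 0.497 times the parental mean. With a pseudocount of 0.1, which understates low genes less, the value for MC38-LM3a was -1.26, past the size asked of a DEG. It also passed that size without MC38-LM3a replicate 1 or 3 (-1.08 and -1.09), and in MC38-LM3b with quantile normalization (-1.03). The difference between the derivatives was 0.18 with a 95% interval from -0.21 to 0.57. Without MC38-LM3a replicate 2, the lowest library, the MC38-LM3a value was -0.75 and still called.

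Atf3 (NCBI Gene 11910), a stress-induced ATF/CREB family factor, did not follow Batf3, although the genes lie close together on chromosome 1. In the RefSeq gene order (GRCm38.p6) they are separated by Fam71a, which the tables do not list. Atf3 was measured at 2.48, 2.14 and 2.52 TPM in MC38-P, at 1.63, 2.04 and 2.16 TPM in MC38-LM3a and at 3.02, 2.84 and 2.95 TPM in MC38-LM3b. The MC38-LM3b libraries were above all others, and the other groups overlapped. Of all tested genes, 51.3% had every MC38-LM3b library above MC38-P, and 38.4% above MC38-LM3a. The log2 fold changes of -0.20 (adjusted p = 0.228) and 0.22 (adjusted p = 0.135) were not called. The ratio of Batf3 to Atf3 levels was 2.21 ± 0.189 (SD, n = 3) for the parental line, 1.19 ± 0.503 for MC38-LM3a and 0.889 ± 0.136 for MC38-LM3b. On the outer sides of the pair, Nsl1 beside Batf3 had values of 0.10 (adjusted p = 0.616) and 0.45 (adjusted p = 0.0145), and Nenf beside Atf3 was higher in both derivatives (0.61, adjusted p = 0.002, and 0.31, adjusted p = 0.0403). Nsl1 and Atf3, the measured genes beside Batf3, were thus not called lower. Beyond Nenf, Pacc1 and Ppp2r5a were not called, and Dtl was called lower in MC38-LM3a (-0.44, adjusted p = 0.0121) but not in MC38-LM3b. Over the 627 tested genes of chromosome 1 the median log2 fold changes were 0.0025 and 0.23. The part of the region in the level of Batf3 was not tested.

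The start regions of both genes are shown because the neighbours differed in response. Each sequence covers the 250 bases before and the first 50 bases of the transcript in RefSeq (GRCm38.p6), read in the direction of transcription, at chr1:191098164-191098463 (plus strand) for Batf3 and chr1:191183284-191183583 (minus strand) for Atf3. Capitals mark matches on either strand to any of 8 motifs: the TRE (TGACTCA), the CRE (TGACGTCA), the CRE core (TGACG), the octamer TGACATCA, the ATF site TTACGTCA, the EGR sites GCGGGGGCG and GCGTGGGCG, and the CArG box of serum response factor. The CRE core is contained in the CRE, and its reverse complement in the CRE and the ATF site.
Batf3: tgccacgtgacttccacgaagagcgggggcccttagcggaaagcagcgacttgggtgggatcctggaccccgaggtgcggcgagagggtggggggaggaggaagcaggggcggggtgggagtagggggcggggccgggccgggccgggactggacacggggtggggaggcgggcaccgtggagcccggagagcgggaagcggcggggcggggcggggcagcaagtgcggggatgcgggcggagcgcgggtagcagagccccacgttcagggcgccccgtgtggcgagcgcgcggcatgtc
Atf3: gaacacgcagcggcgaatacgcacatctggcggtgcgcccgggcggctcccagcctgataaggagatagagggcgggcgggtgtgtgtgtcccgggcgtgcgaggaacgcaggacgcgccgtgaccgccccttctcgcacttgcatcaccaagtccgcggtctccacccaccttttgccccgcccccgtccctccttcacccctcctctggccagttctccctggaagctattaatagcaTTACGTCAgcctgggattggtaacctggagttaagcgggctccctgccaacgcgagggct
The Atf3 window held the ATF site with its first base 10 bases before the start, a match found in 0.499% of 32851 mouse windows of this length. The Batf3 window, with 75.7% G and C, held none of the 8 motifs. A match or its absence describes these letters only.

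Fos (NCBI Gene 14281), the founding immediate-early Fos subunit, was the other member lower in both derivatives. It was low throughout, at 2.62, 2.14 and 2.60 TPM in MC38-P, 1.01, 1.53 and 1.55 TPM in MC38-LM3a and 1.60, 1.83 and 1.42 TPM in MC38-LM3b. No derivative library reached the lowest parental library. The log2 fold change was -0.55 (SE 0.134, adjusted p = 0.0108) in MC38-LM3a and -0.40 (adjusted p = 0.0315) in MC38-LM3b, and the derivatives differed by 0.15 (95% interval -0.14 to 0.45). With a pseudocount of 0.1 these falls were -0.82 and -0.57. With the pseudocount of 1, the MC38-LM3b value was -0.61 relative to the median of all genes. Of the fits that left out 1 library, 4 lost the MC38-LM3b call, those without MC38-P replicate 1 or 3 or MC38-LM3b replicate 1 or 3, with adjusted p-values of 0.0769, 0.0815, 0.0825 and 0.109. The RefSeq start region of Fos (GRCm38.p6, chr12:85473640-85473939, plus strand) is shown because its upstream elements are textbook examples of signal response.
Fos: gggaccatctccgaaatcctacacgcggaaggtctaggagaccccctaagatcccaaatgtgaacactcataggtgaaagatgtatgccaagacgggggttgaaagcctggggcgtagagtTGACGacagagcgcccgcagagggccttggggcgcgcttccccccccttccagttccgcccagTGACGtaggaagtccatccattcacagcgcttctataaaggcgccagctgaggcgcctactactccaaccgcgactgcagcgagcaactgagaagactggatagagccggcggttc
It held the CRE core 2 times, beginning 129 and 66 bases before the start, and no other searched motif; the CRE core was found in 20.8% of all windows. The CArG box for which Fos is known was not matched within these 300 bases, and 1.63% of all windows held it. Sequence further upstream was not searched, so the search cannot tell whether the Fos promoter holds the box.

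The other Fos subunits were not called lower as deposited. Fosl1 (NCBI Gene 14283), which encodes Fra-1, a Fos protein without the activation domain of Fos and one associated with carcinoma invasion, was the most abundant of the 10 genes per length. Its level was 119.55, 120.83 and 114.20 TPM in MC38-P, 106.03, 115.79 and 140.83 TPM in MC38-LM3a and 131.64, 145.94 and 146.73 TPM in MC38-LM3b. Every MC38-LM3b library was above every MC38-P library, as for 51.3% of all tested genes, whereas MC38-LM3a spanned both groups. The log2 fold change of 0.26 (SE 0.0964, adjusted p = 0.0495) in MC38-LM3b lay just inside the threshold and close to the median of 0.21 of all genes. It was called under 6 of 18 alternative settings, with adjusted p-values up to 0.141. In MC38-LM3a the value was 0.02 (adjusted p = 0.893).

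Fosl2 (NCBI Gene 14284), encoding Fra-2, was measured at 13.18, 11.17 and 8.06 TPM in MC38-P, 8.23, 8.34 and 12.75 TPM in MC38-LM3a and 12.95, 13.70 and 12.29 TPM in MC38-LM3b. The low parental library and the high MC38-LM3a library were those that followed transcript length differently from their groups, and the longest Fosl2 transcript has 6537 bases, the most of the 10 genes. Correction of each library for GC content and length lowered the SD of Fosl2 within groups from 0.27 to 0.09 on the log2 scale. The SD also fell for Jun, Junb, Jund, Fosl1 and Egr1, and rose for Fos, Fosb, Atf3 and Batf3 (Batf3 from 0.24 to 0.27). The part of transcript length in the spread of Fosl2 was not tested. Fosl2 was not called (-0.13, adjusted p = 0.653, and 0.27, adjusted p = 0.256). Its MC38-LM3b value was 0.089 without MC38-P replicate 3. Without both MC38-P replicate 3 and MC38-LM3a replicate 3, a setting chosen after seeing the data, the MC38-LM3a value was -0.50 (adjusted p = 0.00076). It was -0.38 (adjusted p = 1.86e-05) with array weights and -0.05 with the correction. Fosb (NCBI Gene 14282), a subunit induced with Fos, was at 2.00, 1.59 and 2.01 TPM in MC38-P, 1.49, 1.45 and 1.83 TPM in MC38-LM3a and 2.45, 1.75 and 2.18 TPM in MC38-LM3b. Its groups overlapped, and the log2 fold changes of -0.15 (95% interval -0.43 to 0.14) and 0.12 (-0.16 to 0.41) were not called.

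Among the Jun subunits, Jun was called higher in MC38-LM3b and Junb lower in MC38-LM3a. Jun (NCBI Gene 16476), the founding AP-1 protein and a target of Jun N-terminal kinases, was at 21.11, 20.77 and 18.01 TPM in MC38-P, 20.26, 19.42 and 25.15 TPM in MC38-LM3a and 26.95, 27.07 and 26.99 TPM in MC38-LM3b. The MC38-LM3b libraries lay close together and above all 6 others. They were wholly above MC38-P for 51.3% of all tested genes, and wholly above MC38-LM3a for 38.4%. The log2 fold change in MC38-LM3b was 0.42 (SE 0.11, adjusted p = 0.0105) and stayed called under 18 of 18 alternatives, from 0.19 with quantile normalization to 0.46. Relative to the median of all genes it was 0.21. In MC38-LM3a the value was 0.10 (adjusted p = 0.535). It was -0.0055 without replicate 3, and with correction for GC content and length it was 0.14 and called (adjusted p = 0.0253). Jun lies on chromosome 4, whose 693 tested genes had a median of 0.10 for MC38-LM3a and 0.25 for MC38-LM3b.

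The RefSeq start region of Jun (GRCm38.p6, chr4:95052173-95052472, minus strand) is shown because Jun is known to be activated by AP-1 and ATF dimers through a TRE-like octamer near its start.
Jun: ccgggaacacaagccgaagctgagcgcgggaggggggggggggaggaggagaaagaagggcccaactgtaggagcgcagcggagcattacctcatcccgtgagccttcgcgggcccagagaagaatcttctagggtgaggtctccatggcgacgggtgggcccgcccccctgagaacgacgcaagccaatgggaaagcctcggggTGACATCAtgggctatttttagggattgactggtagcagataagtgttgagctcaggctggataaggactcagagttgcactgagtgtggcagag
The octamer TGACATCA was the only searched motif in the window, beginning 45 bases before the start; 3.62% of all windows held it. The TRE itself, present in 5.2% of windows, was found in none of the 8 member windows searched (Jun, Junb, Jund, Fos, Fosb, Fosl2, Atf3 and Batf3). The Jund window, with 46.7% G and C and not shown, may not lie at the main start of that gene.

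Junb (NCBI Gene 16477), a Jun protein that can oppose Jun at many promoters, was the second most abundant member per length. It was at 96.54, 97.16 and 86.03 TPM in MC38-P, 76.32, 74.54 and 78.32 TPM in MC38-LM3a and 87.61, 79.65 and 83.34 TPM in MC38-LM3b. All MC38-LM3a libraries were below all others. They were wholly below MC38-P for 15.9% of all tested genes, and wholly below MC38-LM3b for 38.4%. The log2 fold change was -0.28 (SE 0.0706, adjusted p = 0.0127) in MC38-LM3a, and -0.16 (adjusted p = 0.00722) with correction for GC content and length. In MC38-LM3b it was -0.16 (95% interval -0.31 to 0.00024, adjusted p = 0.0909), which was not called as deposited but was called with that correction (-0.17, adjusted p = 0.00558) and with quantile normalization (-0.30, adjusted p = 0.00175). Relative to the median of all genes the MC38-LM3b value was -0.37. The difference between the derivatives was 0.13 (adjusted p = 0.185), and -0.0038 with the correction.

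Jund (NCBI Gene 16478), the most constitutively expressed Jun protein in many cells, was at 42.78, 39.53 and 36.43 TPM in MC38-P, 34.78, 30.80 and 33.34 TPM in MC38-LM3a and 36.52, 33.37 and 33.97 TPM in MC38-LM3b. The MC38-LM3a libraries were all below the parental ones, but the log2 fold change of -0.26 had an adjusted p-value of 0.0501, just outside the threshold. It was -0.05 (adjusted p = 0.336) after correction for GC content and length, and was called under 6 of 18 alternatives. Among them were the fits without MC38-P replicate 3 (-0.31, adjusted p = 0.0248) and without MC38-LM3a replicate 3 (-0.26, adjusted p = 0.0437). Quantile normalization gave -0.24 (adjusted p = 0.0287). In MC38-LM3b it was -0.19 (adjusted p = 0.0993), and -0.40 relative to the median of all genes. It was called there under 4 of 18 alternatives, among them quantile normalization (-0.40, adjusted p = 0.00192) and the correction (-0.12, adjusted p = 0.0392). Jun, Junb and Jund each have 1 exon in the longest coding transcript of the GENCODE M21 annotation (GRCm38), and Junb and Jund both lie on chromosome 8.

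**Figure D2:**
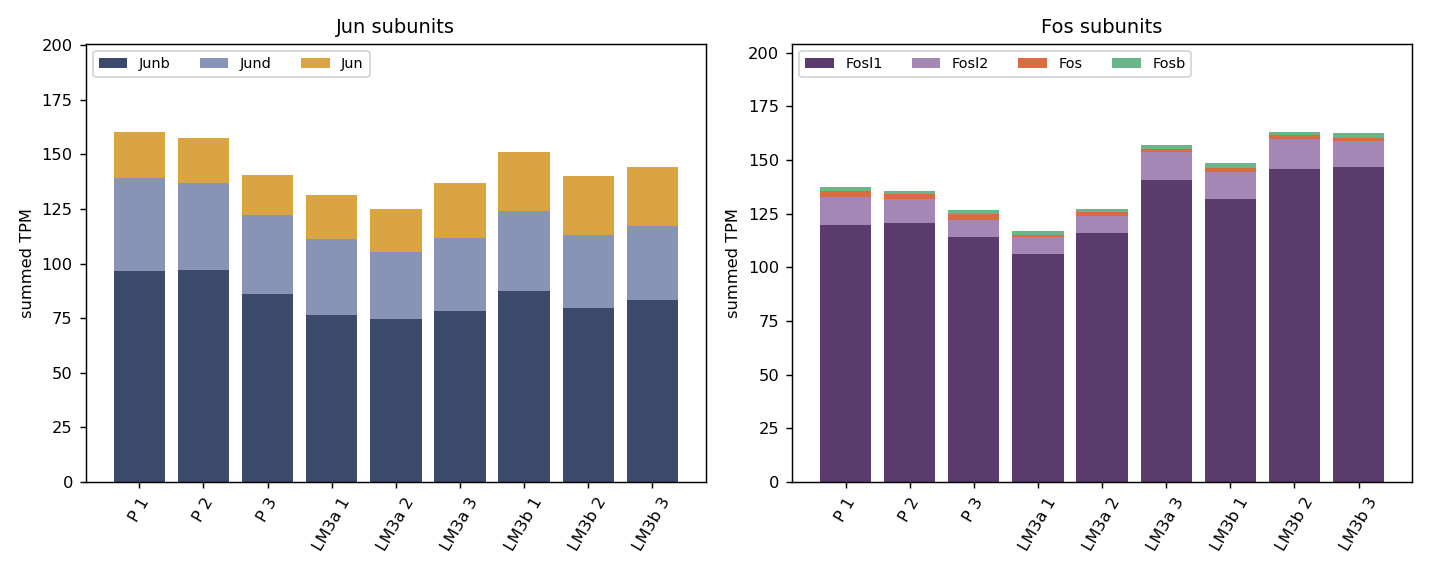
Summed TPM (vertical axis, from 0) of the 3 Jun subunits and of the 4 Fos subunits in each of the 9 libraries, with each subunit's part in colour. Junb and Fosl1 make up most of the sums in every library, and Jun is the smallest part of the Jun sum in each of the 9.

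Jun made up a larger share of the Jun pool in the derivatives, and Junb a smaller one. The summed level of Jun, Junb and Jund ranged from 140 to 160 TPM in MC38-P, from 125 to 137 TPM in MC38-LM3a and from 140 to 151 TPM in MC38-LM3b. Jun made up 13.1% ± 0.205 (SD, n = 3) of it in parental cells, 16.5% ± 1.67 for MC38-LM3a and 18.6% ± 0.746 for MC38-LM3b, and the lowest derivative library, with 15.4%, was above the highest parental library, with 13.2%. Junb made up 61.0% ± 0.784, 58.4% ± 1.27 and 57.5% ± 0.598, without overlap between the parental and derivative libraries. The ratio of Jun to Junb was 0.214 ± 0.0047, 0.282 ± 0.0336 and 0.324 ± 0.0161. These shares are descriptions of the same values as above and were not tested. RNA shares do not give the amounts of the proteins or of their dimers.

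The Fos pool was dominated by Fosl1 in every library. Fosl1 made up 88.7% ± 1.51 of the summed Fos subunits in parental cells, 90.5% ± 0.724 for MC38-LM3a and 89.4% ± 0.833 for MC38-LM3b, ranges that overlapped. Fos made up 1.84% ± 0.243, 1.02% ± 0.171 and 1.02% ± 0.132, with every derivative library below every parental one. The sum itself was 127 to 137 TPM in MC38-P, 117 to 157 TPM in MC38-LM3a and 149 to 163 TPM in MC38-LM3b.

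Egr1 (NCBI Gene 13653), the zinc finger immediate-early factor induced by serum and MAP kinase signals, lies on chromosome 18 and had the widest spread of the members within groups on the log2 scale as deposited (SD 0.33). Its level was 21.61, 21.34 and 13.04 TPM in MC38-P, 9.54, 10.67 and 17.30 TPM in MC38-LM3a and 21.75, 21.87 and 21.90 TPM in MC38-LM3b. The libraries numbered 3 of MC38-P and MC38-LM3a each lay toward the other group. The log2 fold change in MC38-LM3a was -0.55 with a 95% interval from -1.04 to -0.07 (adjusted p = 0.0876) and was not called. It was -0.78 (adjusted p = 0.0131) without MC38-P replicate 3, -0.79 (adjusted p = 0.0038) without MC38-LM3a replicate 3, -1.02 (adjusted p = 1.56e-06) without both, and -0.48 (adjusted p = 0.00759) with correction for GC content and length. Over all 18 alternatives the value ran from -1.03 to -0.39 and was called in 6. In MC38-LM3b the value was 0.25 (adjusted p = 0.361), and 0.023 without MC38-P replicate 3.

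No member was called between MC38-LM3b and MC38-LM3a, a comparison in which limma called 0.0354% of all tested genes higher and 0.0177% lower, with 0.0266% as DEGs. At an unadjusted p-value under 0.05, 4 members were higher in MC38-LM3b: Egr1 by 0.80 (95% interval 0.32 to 1.29), Atf3 by 0.42 (0.17 to 0.68), Jun by 0.32 (0.07 to 0.56) and Fosl1 by 0.23 (0.02 to 0.45). Their adjusted p-values were 0.119, 0.119, 0.119 and 0.12. By the same unadjusted criterion 4296 of the 11287 genes differed. The median of all genes in this comparison was 0.21, and relative to it the values were 0.59 for Egr1, 0.22 for Atf3, 0.11 for Jun and 0.025 for Fosl1. Without MC38-LM3a replicate 3, 5 members and 6351 genes were called.

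**Figure D3:**
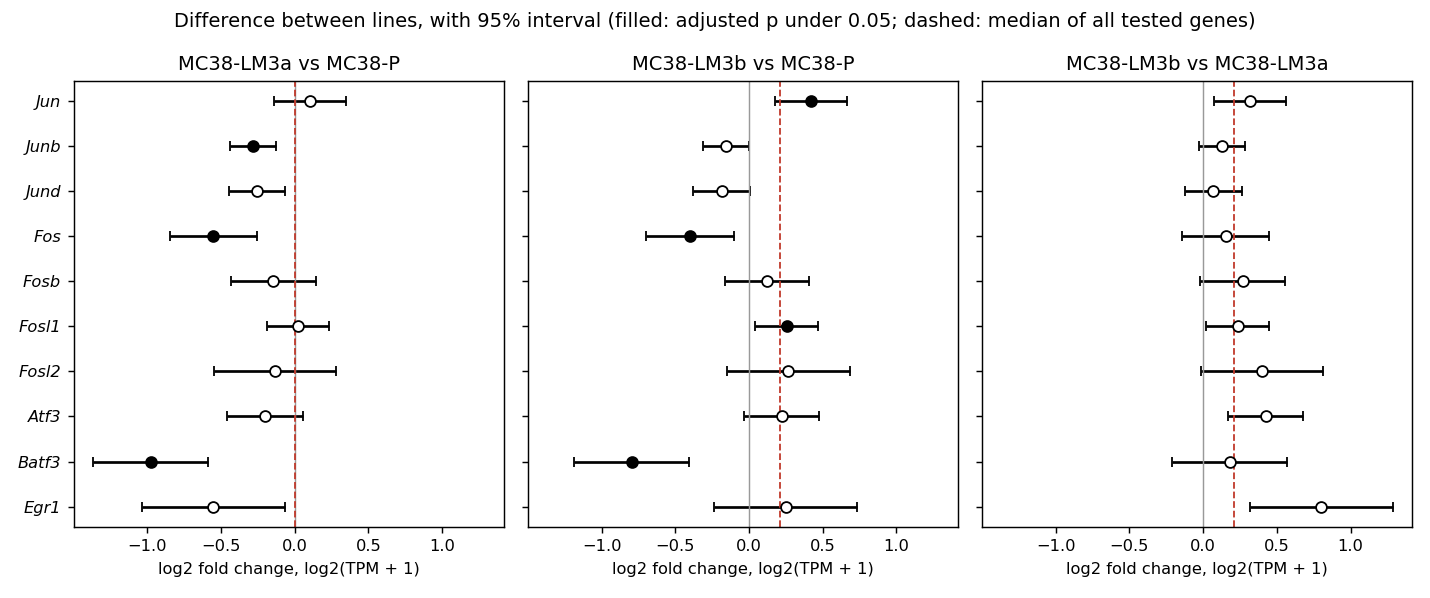
Log2 fold change on log2(TPM + 1) (horizontal axis) with its 95% interval for each of the 10 genes in the 3 comparisons. Filled points have an adjusted p-value under 0.05; the dashed line is the median of all tested genes, which lies at 0.21 in both comparisons of MC38-LM3b.

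**Figure D4:**
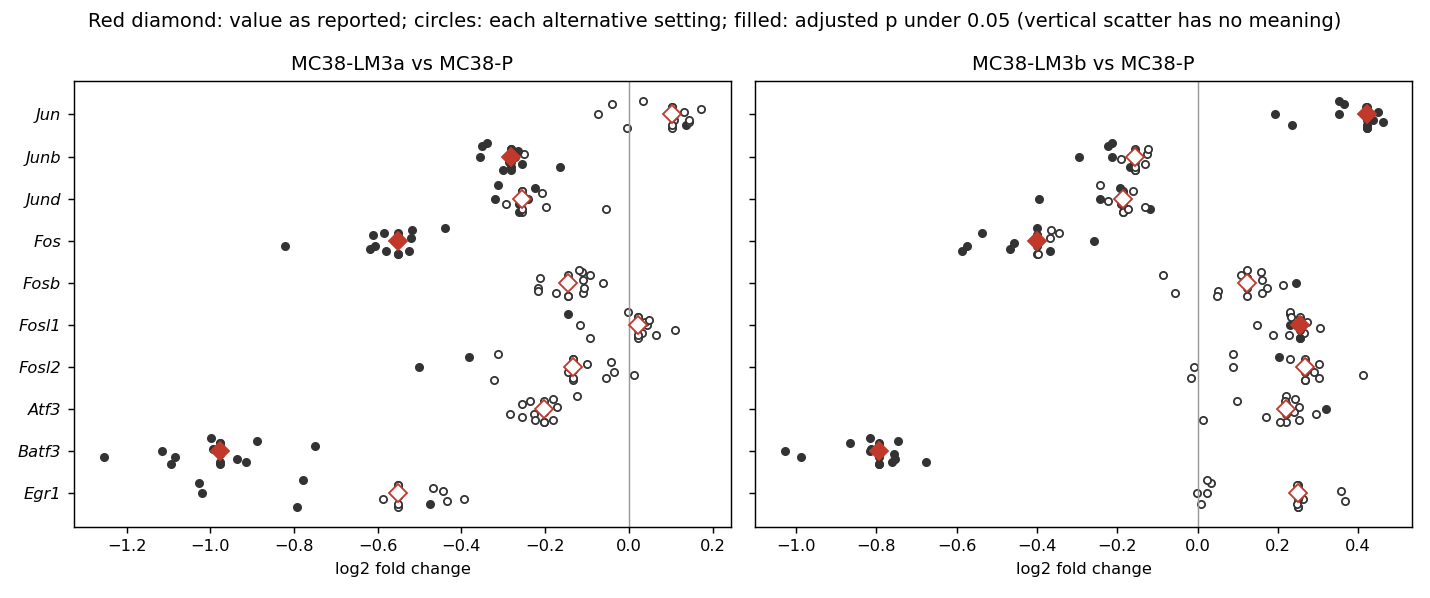
Log2 fold change (horizontal axis) of each gene against MC38-P as reported (red diamond) and under each alternative setting (circles), filled where the adjusted p-value is under 0.05. Batf3 stays called and negative in all settings of both panels and Jun called and positive in MC38-LM3b, whereas Egr1 in MC38-LM3a ranges from -1.03 to -0.39. The filter of 5 TPM, which Batf3 passed only through MC38-P, does not test its fall.

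Other genes of the bZIP family were read beside the members. Of 24 other bZIP genes listed, 20 were tested. Of these, 2 were higher and 5 lower in MC38-LM3a, and 8 higher and 3 lower in MC38-LM3b. Of all genes, 14.1% and 13.8%, and 35.6% and 11.2%, were. Batf2, which passed the filter only through derivative libraries, is among the genes counted as higher in each derivative. With correction for GC content and length the bZIP counts were 8 and 6, and 7 and 4. With that correction 27.0% of all genes were higher and 25.3% lower for MC38-LM3a, and 29.6% and 28.9% for MC38-LM3b. Jdp2, a partner that represses AP-1 and ATF sites, was at 40.44, 35.72 and 40.60 TPM in MC38-P, 81.95, 82.10 and 76.60 TPM in MC38-LM3a and 78.62, 81.03 and 76.85 TPM in MC38-LM3b. The groups did not overlap, and the log2 fold change was 1.03 (SE 0.0729, adjusted p = 5.06e-06) and 1.00 (adjusted p = 4.44e-06). Batf2, a BATF protein that pairs with Jun and is induced by interferon, had values of 0.09 to 0.15 TPM in MC38-P, 1.32 to 2.08 TPM in MC38-LM3a and 1.57 to 2.25 TPM in MC38-LM3b. Its log2 fold changes of 1.24 and 1.33 are a description, since Batf2 passed the filter of 1 TPM only through the derivative libraries.

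Atf4, the factor of the integrated stress response, is named after its values were seen, as the most abundant of the listed bZIP genes called. It was at 430.92, 404.38 and 374.17 TPM in MC38-P, 227.90 to 240.74 TPM in MC38-LM3a and 254.23 to 264.48 TPM in MC38-LM3b. Its log2 fold changes were -0.79 (adjusted p = 9.80e-06) and -0.64 (adjusted p = 3.47e-05). Atf4 lies on chromosome 15, whose 458 tested genes had a median of -0.54 for MC38-LM3a and -0.32 for MC38-LM3b, with 68.8% and 48.5% called lower. Of the listed bZIP genes, 4 tested ones are on that chromosome and 3 of them were lower in each derivative, whereas of the 16 on other chromosomes 2 were lower in MC38-LM3a and the 8 called in MC38-LM3b were higher. None of the 10 members lies on chromosome 15.

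The same chromosome held 5 of the 9 called falls among other immediate-early genes as deposited. Of 34 listed, 32 were tested. Of these, 9 were lower in each derivative, beside 13.8% and 11.2% of all genes. In MC38-LM3a 2 were higher and in MC38-LM3b 7, beside 14.1% and 35.6% of all genes. The number lower was 15 in each with correction for GC content and length, beside 25.3% and 28.9% of all genes. It was 13 and 17 with quantile normalization, beside 20.5% and 24.5%. Since 6 tested genes of the list are on chromosome 15, most of these falls lay on other chromosomes. On chromosome 15, 5 of 6 tested genes were lower in each derivative. On the other chromosomes 4 of 26 (15.4%) were lower in each as deposited, close to the 13.8% and 11.2% of all genes. Of these 4, 1 was Egr2. Arc, an activity-regulated gene of synapses, showed the largest fall, from 28.32 to 32.31 TPM in MC38-P to 13.32 to 15.55 TPM in MC38-LM3a (-1.02, adjusted p = 4.82e-05) and 15.21 to 17.99 TPM in MC38-LM3b (-0.85, adjusted p = 0.000123); it is on chromosome 15. Trib1, Nr4a1 and Klf10, named after their values were seen, are also on chromosome 15, with log2 fold changes of -0.86, -0.84 and -0.60 in MC38-LM3a and -0.67, -0.58 and -0.41 in MC38-LM3b. The MC38-LM3b call of Nr4a1 was lost without MC38-P replicate 2, MC38-LM3b replicate 2 or MC38-LM3b replicate 3 (adjusted p-values up to 0.0912). Called falls also lay elsewhere. Of genes named in the same way, Ier5l on chromosome 2 had -0.67 (adjusted p = 0.000469) and -0.57 (adjusted p = 0.00092). Egr2 on chromosome 10 was at 1.19 to 1.80 TPM in MC38-P, 0.49 to 0.61 TPM in MC38-LM3a and 0.73 to 0.98 TPM in MC38-LM3b, a description, since it passed the filter only through the parental libraries. Of the genes called higher, Rhob on chromosome 12, also named after its values were seen, had the largest change, 0.57 and 1.05, called under 18 of 18 alternatives in each derivative. Klf6 on chromosome 13, named in the same way, was higher, at 0.43 (adjusted p = 0.0174) and 0.82 (adjusted p = 0.000315). Its MC38-LM3a call held under 15 of 18 alternatives (adjusted p-values up to 0.0612). The part of the chromosome in each gene's level was not tested.

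**Figure D5:**
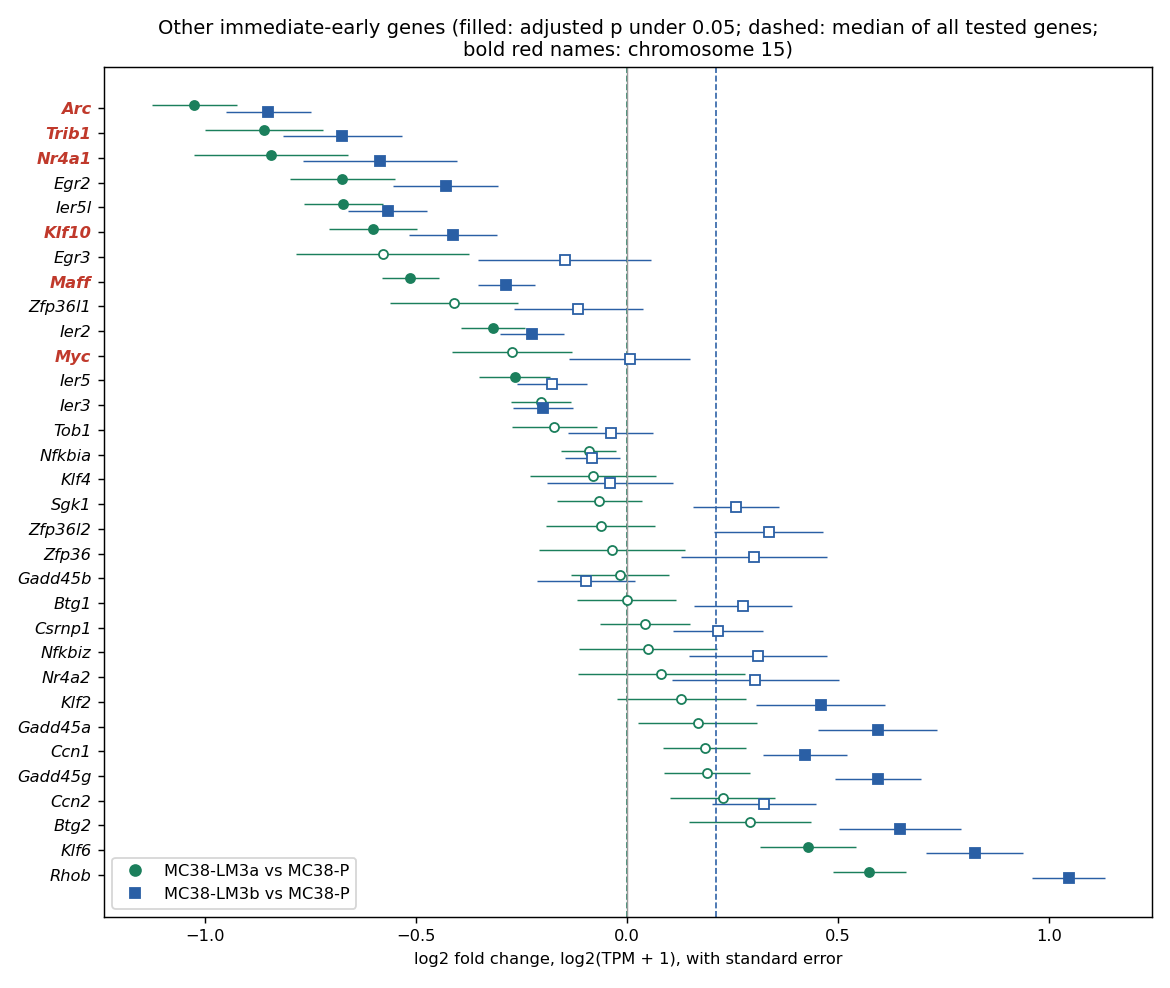
Log2 fold change with its standard error (horizontal axis) of the 32 tested immediate-early genes other than the members, in MC38-LM3a (circles) and MC38-LM3b (squares) against MC38-P, filled where the adjusted p-value is under 0.05. Names in bold red are the 6 genes on chromosome 15, of which 5 are lower in each derivative; dashed lines are the medians of all tested genes.

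Upstream of AP-1, fewer genes were called in MC38-LM3a than in MC38-LM3b as deposited. Of all genes, 14.1% and 35.6% were higher and 13.8% and 11.2% lower. Of 32 tested MAP kinase cascade genes, 1 was higher and 3 lower in MC38-LM3a, and 16 higher and 2 lower in MC38-LM3b. With correction for GC content and length the counts were 9 and 5, and 13 and 5, beside 27.0% and 25.3%, and 29.6% and 28.9%, of all genes. The gene called higher in both derivatives was Map2k1, named after its values were seen, which encodes the ERK kinase MEK1, at 0.35 (adjusted p = 0.00145) and 0.45 (adjusted p = 0.000212). Map3k2, a kinase of the JNK and ERK5 arms, had the largest change of the list in MC38-LM3b, 0.72 (adjusted p = 0.0087), beside 0.27 (adjusted p = 0.304) in MC38-LM3a. Of the 8 serum response factor and ternary complex genes, limma called 0 in MC38-LM3a (2 at an unadjusted p-value under 0.05), and 3 were higher in MC38-LM3b, with Elk3 at 0.61 (adjusted p = 0.00305) as the largest. With the correction, 3 were higher and 1 lower for MC38-LM3a, and 2 higher and 2 lower for MC38-LM3b. Without MC38-P replicate 3 the number higher in MC38-LM3b was 1, and without MC38-LM3a replicate 3 it was 5. Map3k2 and Elk3 were higher in MC38-LM3a replicate 3 (23.39 and 92.22 TPM) than in the other MC38-LM3a libraries (at most 15.10 and 70.26 TPM). Without MC38-P replicate 3, 7 cascade genes were higher in MC38-LM3b, beside 26.1% of all genes, and without MC38-LM3a replicate 3 there were 20, beside 45.1%.

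Feedback inhibitors of MAP kinases included genes called in each direction. Of 17 tested, 3 were higher and 1 lower in MC38-LM3a, and 8 higher and 1 lower in MC38-LM3b. Of all genes, 14.1% and 35.6% were called higher and 13.8% and 11.2% lower. Without MC38-P replicate 3 the number higher in MC38-LM3b was 4, beside 26.1%. With correction for GC content and length 4 were higher and 3 lower for MC38-LM3a, beside 27.0% and 25.3% of all genes. For MC38-LM3b 7 were higher and 4 lower, beside 29.6% and 28.9%. With quantile normalization the counts were 3 and 3, beside 21.5% and 20.5%, and 6 and 3, beside 25.9% and 24.5%. Dusp10, a phosphatase of JNK and p38, was at 8.14, 7.65 and 5.36 TPM in MC38-P, 11.48, 9.70 and 12.40 TPM in MC38-LM3a and 12.96, 12.07 and 12.53 TPM in MC38-LM3b, with log2 fold changes of 0.61 (adjusted p = 0.0105) and 0.77 (adjusted p = 0.0021). Dusp6, the ERK phosphatase, and Dusp2, both named after their values were seen, had 0.43 and -0.38 in MC38-LM3a and 0.56 and -0.40 in MC38-LM3b.

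Genes reported as AP-1 targets, a list written from general knowledge, changed in both directions. Of 30 tested, 5 were higher and 7 lower in MC38-LM3a, and 15 higher and 5 lower in MC38-LM3b. Of all genes, 14.1% and 13.8%, and 35.6% and 11.2%, were. The 15 include Mmp13, which at 0.71 to 0.98 TPM in MC38-P passed the filter only through derivative libraries. With correction for GC content and length the counts were 13 and 9 for MC38-LM3a, beside 27.0% and 25.3% of all genes, and 12 and 8 for MC38-LM3b, beside 29.6% and 28.9%. With quantile normalization they were 10 and 10, beside 21.5% and 20.5%, and 13 and 5, beside 25.9% and 24.5%. Their median log2 fold changes were 0.07 and 0.25, beside -0.00016 and 0.21 for all genes. Cxcl1, a neutrophil-attracting chemokine, had the largest rise on log2(TPM + 1), from 5.08, 5.31 and 5.50 TPM in MC38-P to 10.28, 10.60 and 9.41 TPM in MC38-LM3a and 13.36, 15.25 and 15.21 TPM in MC38-LM3b. Its log2 fold changes were 0.82 (adjusted p = 0.000238) and 1.31 (adjusted p = 7.55e-06). Cxcl1 also answers to other factors, such as NF-kB. Mmp3, a matrix metalloproteinase gene of low level named after its values were seen, had a level of 1.37 ± 0.221 TPM in the parental line (SD, n = 3), 2.48 ± 0.656 TPM for MC38-LM3a and 4.03 ± 0.446 TPM for MC38-LM3b. Mmp10, of the same gene family and named in the same way, fell from 15.40 ± 0.731 TPM to 7.59 ± 0.625 and 8.58 ± 0.477 TPM. Its log2 fold changes were -0.93 (adjusted p = 9.61e-05) and -0.78 (adjusted p = 0.000226). Without MC38-P replicate 3 and MC38-LM3a replicate 3, the number lower in MC38-LM3a was 13 of 30 targets, 20 of 31 immediate-early genes, 20 of 32 cascade genes, 8 of 17 feedback genes and 11 of 20 bZIP genes, beside 5052 of 11187 genes in all.

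Heat shock genes, which are induced by heat and protein stress, included lower genes in both derivatives, as Fos was. Of 12 tested, 8 were lower and the others not called in MC38-LM3a, beside 13.8% of all genes lower. In MC38-LM3b 6 were lower and 2 higher, beside 11.2% and 35.6%, and without MC38-P replicate 3 the counts were 7 and 0, beside 10.7% and 26.1%. They were 9 and 1 with correction for GC content and length, beside 28.9% and 29.6%, and 4 and 1 with quantile normalization, beside 24.5% and 25.9%. In MC38-LM3a 8 were lower with the correction, beside 25.3% of all genes, and 6 with quantile normalization, beside 20.5%. Of the 12 genes, none lies on chromosome 15. Hspa1b, an inducible HSP70 gene, was at 14.08, 11.73 and 11.65 TPM in MC38-P, 7.41, 6.42 and 7.53 TPM in MC38-LM3a and 7.72, 7.16 and 7.26 TPM in MC38-LM3b, a log2 fold change of -0.73 (adjusted p = 0.000844) and -0.68 (adjusted p = 0.000875). The part of culture state in the levels of Fos and Batf3 was not tested.

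Markers of the labelled cell type and of liver cells were read beside these results. Of 12 epithelial markers, 6 were under 1 TPM in all libraries, and the list summed to 2004 to 2319 TPM in MC38-P, 1592 to 1812 TPM in MC38-LM3a and 1585 to 1630 TPM in MC38-LM3b. Nearly all of it was Krt8 and Krt18, which lie on chromosome 15, with means of 1127 and 907 TPM in MC38-P. Epcam was lower in both derivatives, at 5.76 ± 0.733 TPM (SD, n = 3) in MC38-P, 2.05 ± 0.12 TPM and 2.21 ± 0.293 TPM, and the intestinal factor Cdx2 was at 2.27 ± 0.541, 0.63 ± 0.251 and 0.41 ± 0.141 TPM. The keratin gene Krt19, named after its values were seen, was higher in MC38-LM3a by 0.39 (adjusted p = 0.00358). Krt20, named in the same way, was at 0.54 to 0.79 TPM in MC38-P and 1.21 to 1.83 TPM in MC38-LM3a. Krt20 passed the filter only through derivative libraries and Cdx2 only through MC38-P, so their values are descriptions. Of 9 hepatocyte markers, 7 were listed and summed to 1.81 to 4.33 TPM; 6 endothelial markers summed to 0.79 to 2.07 TPM. Of 12 macrophage and leukocyte markers 5 were listed, and they summed to 27.84 to 29.66 TPM in MC38-P, 34.27 to 41.03 TPM in MC38-LM3a and 40.02 to 45.66 TPM in MC38-LM3b, nearly all of it Cd68, a lysosomal protein gene (4 of the 5 were under 1 TPM throughout). Stellate and fibroblast markers summed to 140 to 177 TPM in MC38-P, 56 to 75.3 TPM in MC38-LM3a and 68.2 to 74.4 TPM in MC38-LM3b, with Col3a1 and Col1a1 lower (-1.34 and -1.55 in MC38-LM3a, -1.19 and -1.48 in MC38-LM3b). Pdgfrb of the same list, named after its values were seen, was higher for MC38-LM3b (0.88, adjusted p = 0.000695). These are bulk libraries, in which fewer cells that express a gene and less RNA per cell cannot be told apart.

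Across the 9 libraries some members had like patterns, given as descriptions over libraries that share the 3 lines and the length trend. Junb and Jund had a Pearson r of 0.92 on log2(TPM + 1), Egr1 and Fosl2 one of 0.91, Jun and Fosl1 one of 0.89, Fosb and Atf3 one of 0.83 and Jun and Fosl2 one of 0.82. Batf3 had 0.86 with Jund, 0.81 with Junb and 0.77 with Fos, against 0.08 for the neighbours Atf3 and Batf3. Among non-members tested, the patterns most like Batf3 were those of Yrdc (r = 0.989), Mid1ip1 (0.979) and Rarg (0.977). Those most like Jun were Inf2 (0.997), Fbrs (0.996) and Far1 (0.996), and those most like Fosl2 included Aftph and Zfp866 (0.995 each). Fosb had the loosest match, with Rasgef1b at 0.91.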

How the data were processed

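RNA of the 3 MC38 lines (3 libraries each) was extracted with TRIzol, enriched for poly(A) and sequenced on the DNBSEQ platform. The authors deposited TPM rounded to 2 decimals for 16399 genes with NCBI Gene numbers; the submitters' processing notes name HISAT and GRCm39, and the quantifier is not given in the sources used here. Groups were taken from the sample titles. TPM keep no depth, so no counting interval or detection floor is given, and near copies or overlapping genes cannot be separated.

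One limma 3.58.1 model (R 4.3.3) with group means was fitted on log2(TPM + 1) over all 9 libraries, with a trended empirical Bayes variance, in place of the count model of the study, since no counts were used here. Genes reaching 1 TPM in 3 or more libraries (11287) were tested, two-sided, with Benjamini-Hochberg adjustment over all of them (threshold 0.05; a DEG also above 1 in absolute log2 fold change). With 3 libraries against 3, an exact permutation test of a single gene cannot go below 0.10. The fit was tested on simulated data with independent noise per gene and a shift, larger than any member's change, added to 200 genes. Such data lack the length trends seen here, so the test covers neither false calls from those trends nor small changes. The alternatives were a pseudocount of 0.1, no filter, a filter of 5 TPM, a model of the compared groups alone, a replicate block, per-library loess offsets for GC content and transcript length (span 0.3; 98.3% of tested genes had values), quantile normalization, array weights and leaving out each library.

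All members are named. From each other list the text names genes called with an absolute change above 1 in both derivatives, at most 4, and otherwise the called gene with the largest mean change; further genes are said to be chosen after their values were seen, and a few items are not reported here. Patterns most like a member are the 3 with the highest Pearson r. The members and lists were chosen with earlier results of these data known. Chromosomes, exons and lengths are from GENCODE M21 (GRCm38; 11094 of 11287 tested genes matched by NCBI Gene number). Start regions are from RefSeq (GRCm38.p6), where 8 members are shown or searched. The set of start regions used here held none for Fosl1, and Egr1 was not among the 8. These builds differ from GRCm39, so positions hold for GRCm38 only.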

Additional observations from a re-analysis of the deposited data

Results flagged for a closer look

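Atf3 and Egr1 lay on opposite sides of the MC38-P mean in the 2 derivatives. The share of all genes with this pattern was not counted. As the pattern requires, every MC38-LM3b library was above every MC38-LM3a library, which held for 38.4% of all tested genes. Atf3 was below the parental mean of 2.38 TPM in the 3 MC38-LM3a libraries (1.63 to 2.16 TPM) and above it in the 3 MC38-LM3b libraries (2.84 to 3.02 TPM). The difference between the derivatives was 0.42 on the log2 scale (limma, adjusted p = 0.119; range over the alternatives 4.21e-05 to 0.372). Egr1 was below the parental mean of 18.66 TPM in the MC38-LM3a libraries (9.54 to 17.30 TPM) and above it in the MC38-LM3b libraries (21.75 to 21.90 TPM). The difference was 0.80 (adjusted p = 0.119; range over the alternatives 1.75e-07 to 0.372). Relative to the median of all genes, the MC38-LM3b values against MC38-P were 0.011 for Atf3 and 0.039 for Egr1, and that of Egr1 was 0.0081 with offsets for GC content and length. Neither difference passed the adjusted test as reported. Both passed with array weights, which did not converge, and without MC38-LM3a replicate 3, at 0.48 for Atf3 and 1.04 for Egr1.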

How the results depend on the processing

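Batf3 was called lower in both derivatives under 18 of 18 alternatives (-1.26 to -0.75 in MC38-LM3a, -1.03 to -0.68 in MC38-LM3b). Among these, the filter of 5 TPM does not test the fall, since Batf3 passed it only through the MC38-P libraries (5.05 to 5.59 TPM). Jun was called higher in MC38-LM3b under 18 of 18 (0.19 to 0.46). Fos in MC38-LM3a was called under 17 of 17 (-0.82 to -0.44; the filter of 5 TPM removed Fos, Fosb and Atf3) and in MC38-LM3b under 12 of 17. Junb in MC38-LM3a was called under 17 of 18, Fosl1 in MC38-LM3b under 6 of 18, and Jund and Egr1 in MC38-LM3a under 6 of 18 each.

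The number of members called in MC38-LM3a was 5 with offsets for GC content and length, 5 with quantile normalization and 8 with array weights, against 3, and 2 to 6 when libraries were left out, where 52.3%, 42.0%, 78.1% and 18.6% to 63.6% of all genes were called. In MC38-LM3b it was 9 with array weights, against 4, and 2 to 6 when libraries were left out, beside 82.5% and 33% to 65.3% of all genes. Between the derivatives it was 8 with array weights (76.9% of all genes), against 0, and 0 to 7 when libraries were left out: 5 without MC38-LM3a replicate 3 (56.4%), and 7 without that library and MC38-P replicate 3 together (71.7%), a setting chosen after seeing the data. The array weights did not converge (0.0817 to 35.1). Libraries with the same replicate number did not deviate together (correlations of -0.66 to 0.07), so the numbers do not pair them. With a replicate block 3, 2 and 0 members were called, and 2200, 3891 and 2 genes in all, against 3160, 5276 and 6. Fos and Fosl1 in MC38-LM3b were not called with the block (adjusted p = 0.0684 and 0.0704).

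Values near 0 changed sign. In MC38-LM3a, Jun was -0.042 and Fosl1 -0.15 with array weights, and with libraries left out Jun ran from -0.074 to 0.17, Fosl1 from -0.12 to 0.11 and Fosl2 from -0.50 to 0.011. In MC38-LM3b, Fosb was -0.087 and -0.057, and Fosl2 -0.016 and -0.0088, with offsets and with quantile normalization, and Egr1 was -0.00046 with quantile normalization. Between the derivatives, Junb was -0.0038 and -0.025 and Jund -0.065 and -0.15 under those settings, Fos -0.060 and Batf3 -0.056 with quantile normalization, and Batf3 ran from -0.044 to 0.30 with libraries left out. Map3k2 in MC38-LM3a was -0.023 with array weights and ran from -0.093 to 0.39 with libraries left out. The cause was not tested. Offsets and quantile normalization, which bring the median of MC38-LM3b against MC38-P to 0.01 and 0.02, moved its split of higher and lower calls from 4013 and 1263 to 3284 and 3207, and to 2928 and 2767. The depth is unknown, which limits most the values of Fos, Fosb, Atf3 and Batf3.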
